A study of Homo sapiens with 6 samples.

Results

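Genes of cholesterol and fatty acid synthesis were compared between clones of KYSE150, a cell line established from a human squamous carcinoma of the oesophagus, with an empty vector or with NCCRP1. The 28 genes were taken as a named list by RefSeq symbol, out of 40448 gene IDs in the deposited files. They form a sterol arm of 19 genes and a fatty acid arm of 9 genes. Per the labels, the mock group is 3 clones (numbers 1, 4 and 5) stably carrying the plasmid pIRES2-EGFP without insert. The NCCRP1 group is 3 clones (numbers 1, 6 and 17) stably carrying an expression plasmid for human NCCRP1, whose promoter the labels do not give. Each clone gave 1 library of rRNA-depleted total RNA for the Ion Torrent platform, and each group therefore rests on 3 clones of the same line. By the run names the deposited files carry, run 15 held mock 1, mock 4 and NCCRP1 1, while run 14 held mock 5, NCCRP1 6 and NCCRP1 17.

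Cholesterol is built from acetyl-CoA through mevalonate, isoprenoid units and squalene, and fatty acids are built from the same acetyl-CoA through malonyl-CoA. Transcription of both arms is driven by the SREBP factors: SREBF2 encodes the form that acts mainly on sterol genes, and SREBF1 the forms that act mainly on fatty acid genes. When sterols are plentiful, INSIG proteins hold SREBP and its escort SCAP in the endoplasmic reticulum. When sterols are scarce, the factors move to the Golgi, are cleaved and enter the nucleus, and INSIG1 is itself among their target genes. Squamous epithelium uses these lipids for membranes and for its permeability barrier.

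The values are log2 RPKM, the base 2 logarithm of reads scaled to gene length and to the total of the library, and no value lies below 0, so that a level under 1 RPKM appears as 0. Depth estimated from the microRNA genes was 12290000 to 18070000 reads per library, and libraries correlated across the 11927 genes above 0 in all of them with r from 0.971 to 0.99. Wherever 3 values are given for a group, their order is clones 1, 4, 5 for mock and clones 1, 6, 17 for NCCRP1. The transfected gene NCCRP1 was listed at 0 for every mock clone and had NCCRP1 values of 6.19, 8.07 and 6.71 (limma adjusted p = 0.00449). All 8 squamous markers, such as KRT5 and TP63, were above 0 in every clone. Their summed level was 1675 to 2068 RPKM in mock and 1158 to 2400 RPKM in NCCRP1 clones. KRT5 was the highest of the 8 in every clone, at 9.54 to 10.86, so the sum says little about the lower markers. All 5 adipocyte markers were listed at 0 throughout, as were 4 of 5 hepatocyte markers (ALB, APOA1, APOB and TTR). The same held for 4 of 5 fibroblast, 4 of 5 immune and 3 of 4 endothelial markers. The remaining fibroblast and immune markers, COL1A1 and CSF1R, were above 0 in every clone. The remaining hepatocyte and endothelial markers, SERPINA1 and CDH5, were above 0 only in NCCRP1 clone 6.

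Promoters were matched for 25 of the 28 genes in the RefSeq table (GRCh38.p14). FASN, FDFT1 and SQLE had no entry. Of these windows, from 250 bases before to 50 after each annotated start, 1 of 25 genes (4%) held the sterol regulatory element searched as TCACNCCAC, where N is any base, against 1.39% of the 27305 genes in the table. The CCAAT box, bound by the factor NF-Y that often works beside SREBP, was in 20 of 25 genes (80%) against 39.7%. The E-box CACGTG was in 3 of 25 genes (12%) against 8.77%. A GC box, searched as GGGCGG, was in 24 of 25 genes (96%) against 48.3%. The comparison genes were not limited to those expressed in these clones. Both strands were searched, a gene with several starts counted once if any window matched, and a match is a description of letters, not a binding site. The sterol arm held the CCAAT box in 15 of 17 genes and the fatty acid arm in 5 of 8.

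The 250 bases before the start are shown for 5 genes: INSIG1, MSMO1 and ACSS2, which had the largest positive differences of the list, FADS1, which had the most negative, and SREBF2, which held the sterol regulatory element. They lie at chr7:155297628-155297877 (plus strand), chr4:165327419-165327668 (plus), chr20:34874739-34874988 (plus, the first of 2 entries), chr11:61817004-61817253 (minus) and chr22:41832855-41833104 (plus), in that order, on GRCh38.p14. Capitals mark the searched sterol regulatory element, CCAAT box (ATTGG where it lies on the other strand) and E-box.
INSIG1: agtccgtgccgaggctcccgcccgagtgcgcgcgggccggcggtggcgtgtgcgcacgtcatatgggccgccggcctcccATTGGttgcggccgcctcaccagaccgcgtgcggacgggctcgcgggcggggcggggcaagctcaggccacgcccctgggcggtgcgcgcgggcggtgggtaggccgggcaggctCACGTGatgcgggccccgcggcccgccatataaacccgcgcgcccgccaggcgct
MSMO1: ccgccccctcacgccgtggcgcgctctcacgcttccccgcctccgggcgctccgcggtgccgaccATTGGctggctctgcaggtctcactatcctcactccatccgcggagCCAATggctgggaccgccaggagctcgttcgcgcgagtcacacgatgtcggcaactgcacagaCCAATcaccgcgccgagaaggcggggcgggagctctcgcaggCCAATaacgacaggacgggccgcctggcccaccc
ACSS2: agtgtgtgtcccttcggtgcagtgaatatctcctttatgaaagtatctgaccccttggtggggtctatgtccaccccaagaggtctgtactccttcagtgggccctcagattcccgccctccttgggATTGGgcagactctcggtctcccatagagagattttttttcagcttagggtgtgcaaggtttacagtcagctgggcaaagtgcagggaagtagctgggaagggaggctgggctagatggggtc
FADS1: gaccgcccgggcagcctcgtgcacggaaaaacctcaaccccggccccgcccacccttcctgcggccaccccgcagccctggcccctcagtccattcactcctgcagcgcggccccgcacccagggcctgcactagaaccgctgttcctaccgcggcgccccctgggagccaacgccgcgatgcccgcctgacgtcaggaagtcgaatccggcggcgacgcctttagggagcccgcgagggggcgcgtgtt
SREBF2: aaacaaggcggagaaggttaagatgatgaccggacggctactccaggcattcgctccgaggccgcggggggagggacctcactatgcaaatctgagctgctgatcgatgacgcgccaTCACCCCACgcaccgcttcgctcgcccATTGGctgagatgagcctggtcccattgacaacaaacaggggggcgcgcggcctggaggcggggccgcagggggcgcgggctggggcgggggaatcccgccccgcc
INSIG1 carried 1 CCAAT box and 1 E-box, and MSMO1 carried 4 CCAAT boxes. ACSS2 carried 1 CCAAT box in this window. The window of its other entry matched only the GC box, and which start these clones use was not tested. FADS1 carried none of the 3 motifs that the capitals mark. In SREBF2 the sterol regulatory element began at position -133 and a CCAAT box at position -106, counted from the start.

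Most sterol genes had slightly higher means in the NCCRP1 clones, led by INSIG1, while the fatty acid arm was mixed: ACSS2 was higher, FADS1 was lower and the core enzyme genes FASN and ACACA were close between the groups. None of the 27 genes with values passed limma's test (adjusted p under 0.05 over the 12737 genes tested), in which 0.102% of all genes passed. At an unadjusted p under 0.05, limma listed 4 of the 27 genes (INSIG1, ACSS2 and FDFT1 higher, FADS1 lower), against 7.33% of all genes. DHCR7, which encodes the last reductase of the pathway, was listed at 0 in all 6 libraries. A listed 0 can also be a gene without an estimate, since TPT1 and UBB, which every cell uses, were listed at 0 throughout, and DHCR7 was not tested. The other 27 genes were above 0 in every library.

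In the sterol arm 16 of 18 tested genes averaged higher with NCCRP1, against 46.7% of all genes, with a median log2 difference of 0.17 (all genes -0.02). As the list was chosen with earlier results of these data known, the counts of either arm were not tested. In 6 of the 18 (INSIG1, FDFT1, MVD, IDI1, SQLE and HSD17B7) every NCCRP1 clone lay above every mock clone, against 5.71% of all genes. No sterol gene had every NCCRP1 clone below every mock clone, against 7.05% of all genes. In the fatty acid arm 5 of 9 genes had a higher mean, with a median log2 difference of 0.03, and the groups did not overlap for ACSS2 and ACLY (NCCRP1 clones higher) and for FADS1 (NCCRP1 clones lower). Without mock clone 5, 13 of the 18 sterol and 6 of the 9 fatty acid genes had a higher mean. Within run 15 these counts were 14 and 5, and within run 14 they were 14 and 3. The share of all genes with a higher mean was not taken for these subsets, so the counts have no comparison. Without mock clone 5, 10 sterol genes had every NCCRP1 clone above both remaining mock clones, against 15.7% of all genes. In the same bulk RNA, fewer expressing cells and less RNA per cell cannot be told apart.

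**Figure D1:**
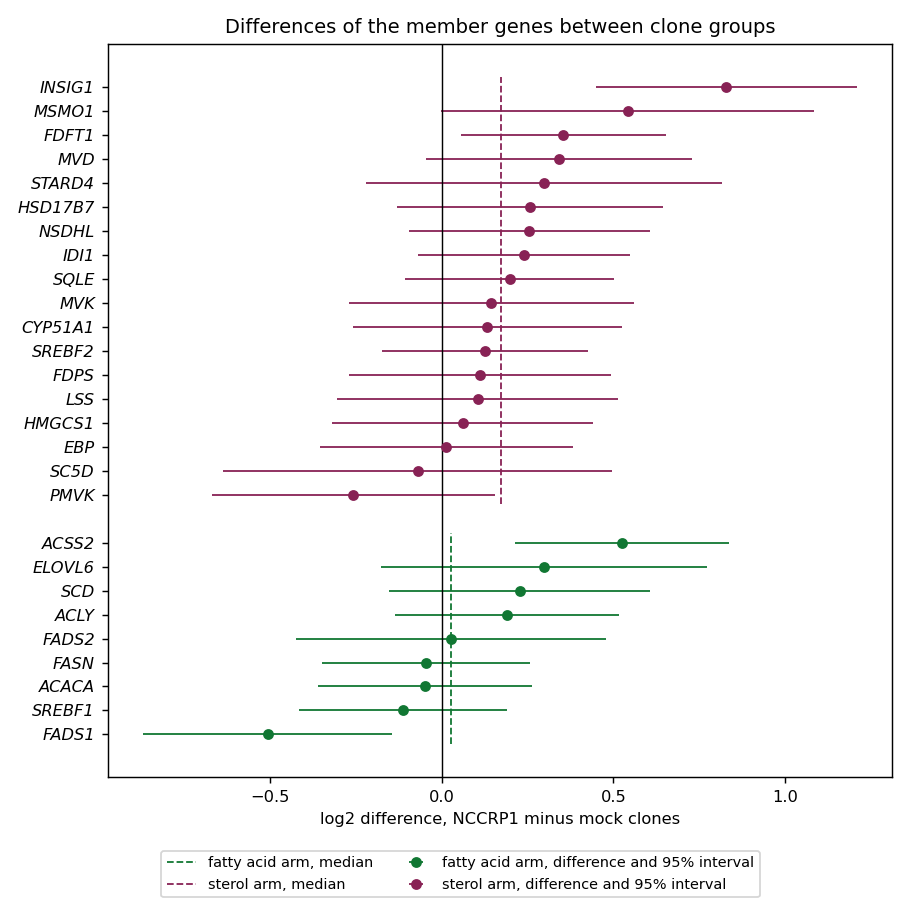
Log2 difference of each tested gene (NCCRP1 minus mock clones, 3 clones each; limma, bars are 95% intervals without adjustment for the number of genes), with the 18 sterol genes above and the 9 fatty acid genes below; dashed lines are the arm medians of 0.17 and 0.03. INSIG1 lies farthest to the right at 0.83 and FADS1 farthest to the left at -0.51.

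INSIG1 encodes the endoplasmic reticulum protein that retains SREBP and is a brake on sterol synthesis. INSIG1 had mock values of 2.53, 2.70 and 2.43 against NCCRP1 values of 3.31, 3.61 and 3.23. The groups did not overlap, and the gap between the highest mock and the lowest NCCRP1 clone was wider than the range within either group. The difference of 0.83 (SE 0.17, 1.78-fold) ranked 52 of 12737 genes by p and missed the threshold (limma unadjusted p = 0.000563, adjusted p = 0.138). It was 0.69 within run 15 and 0.99 within run 14. The exact two-sided permutation test gave p = 0.1, the smallest that 3 against 3 clones allow.

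SREBF2, the gene of the sterol-directed factor, was high and even across the clones. SREBF2 had mock values of 5.88, 6.07 and 5.83 against NCCRP1 values of 6.05, 6.03 and 6.08. Mock clone 4 lay among the NCCRP1 clones, so the groups overlapped, and the difference of 0.13 had a 95% interval of -0.17 to 0.43. STARD4, which encodes a cytosolic carrier of cholesterol, averaged 1.60 ± 0.38 (mock) and 1.90 ± 0.19 (NCCRP1) (SD, n = 3 each), with overlap.

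Of the 7 genes from HMG-CoA to squalene, 6 averaged higher with NCCRP1. FDFT1 encodes squalene synthase, the first enzyme committed to sterols. FDFT1 had mock values of 4.11, 4.29 and 4.31 against NCCRP1 values of 4.54, 4.59 and 4.65. Every NCCRP1 clone lay above every mock clone, and the difference was 0.35 (SE 0.14; limma adjusted p = 0.565), at 0.34 within run 15 and 0.31 within run 14.

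MVD encodes the decarboxylase that makes isopentenyl diphosphate. MVD had mock values of 4.06, 3.99 and 3.47 against NCCRP1 values of 4.12, 4.14 and 4.29. Mock clone 5 stood well below the rest, and the difference of 0.34 (limma adjusted p = 0.736) was 0.10 within run 15 and 0.74 within run 14. IDI1, the isomerase gene of the next step, had mock values of 4.07, 4.12 and 4.27 against NCCRP1 values of 4.28, 4.38 and 4.52. The groups touched at mock clone 5 and NCCRP1 clone 1 without overlapping, and the difference of 0.24 (limma adjusted p = 0.786) was 0.19 within run 15 and 0.18 within run 14.

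The remaining genes of this stretch overlapped between the groups. HMGCS1, encoding the synthase that makes HMG-CoA, averaged 3.58 ± 0.09 (mock) and 3.64 ± 0.28 (NCCRP1). The kinase gene MVK was at 3.94 ± 0.37 and 4.09 ± 0.11, and FDPS, encoding farnesyl diphosphate synthase, at 5.31 ± 0.33 and 5.42 ± 0.06 (SD, n = 3 each). Both had their lowest value in mock clone 5. PMVK, encoding phosphomevalonate kinase, was the sole gene of the stretch with a lower mean in the NCCRP1 clones, at 5.55 ± 0.15 and 5.29 ± 0.37, with its lowest value of 4.93 in NCCRP1 clone 6.

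Beyond squalene, 7 of 8 tested genes averaged higher with NCCRP1. SQLE encodes squalene epoxidase, a flux-controlling step. SQLE had mock values of 3.93, 4.17 and 4.15 against NCCRP1 values of 4.28, 4.31 and 4.27. The NCCRP1 clones were nearly equal and all above the mock clones, by a mean of 0.20 (limma adjusted p = 0.857). HSD17B7, encoding a ketosteroid reductase, had mock values of 2.17, 2.19 and 2.26 against NCCRP1 values of 2.31, 2.64 and 2.44, also without overlap. Its value is uncertain, as pseudogene copies can share its reads.

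MSMO1 and NSDHL encode enzymes that remove the methyl groups at carbon C-4. MSMO1 had the second largest difference of the arm, 0.54 (SE 0.25; limma adjusted p = 0.683), but its mock clones were split. MSMO1 had mock values of 2.08, 2.30 and 3.11 against NCCRP1 values of 2.95, 3.14 and 3.01. Mock clone 5 lay among the NCCRP1 clones, and the difference was 0.77 within run 15 and -0.03 within run 14. NSDHL had mock values of 3.27, 3.56 and 3.70 against NCCRP1 values of 3.83, 3.77 and 3.69, with an overlap at mock clone 5. Its difference of 0.25 was 0.13 without mock clone 1, 0.42 within run 15 and 0.03 within run 14.

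The other enzyme genes of this stretch had differences of 0.13 or less in size. LSS, encoding lanosterol synthase, averaged 3.80 ± 0.36 (mock) and 3.91 ± 0.07 (NCCRP1), and the demethylase gene CYP51A1 averaged 2.71 ± 0.24 and 2.85 ± 0.09 (SD, n = 3 each). EBP, the sterol isomerase gene, was at 5.26 ± 0.29 and 5.27 ± 0.13. SC5D, the desaturase gene, had the lowest level of the 27 tested genes, at 0.46 ± 0.46 and 0.39 ± 0.08, and its highest value was 0.99 in mock clone 5.

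**Figure D2:**
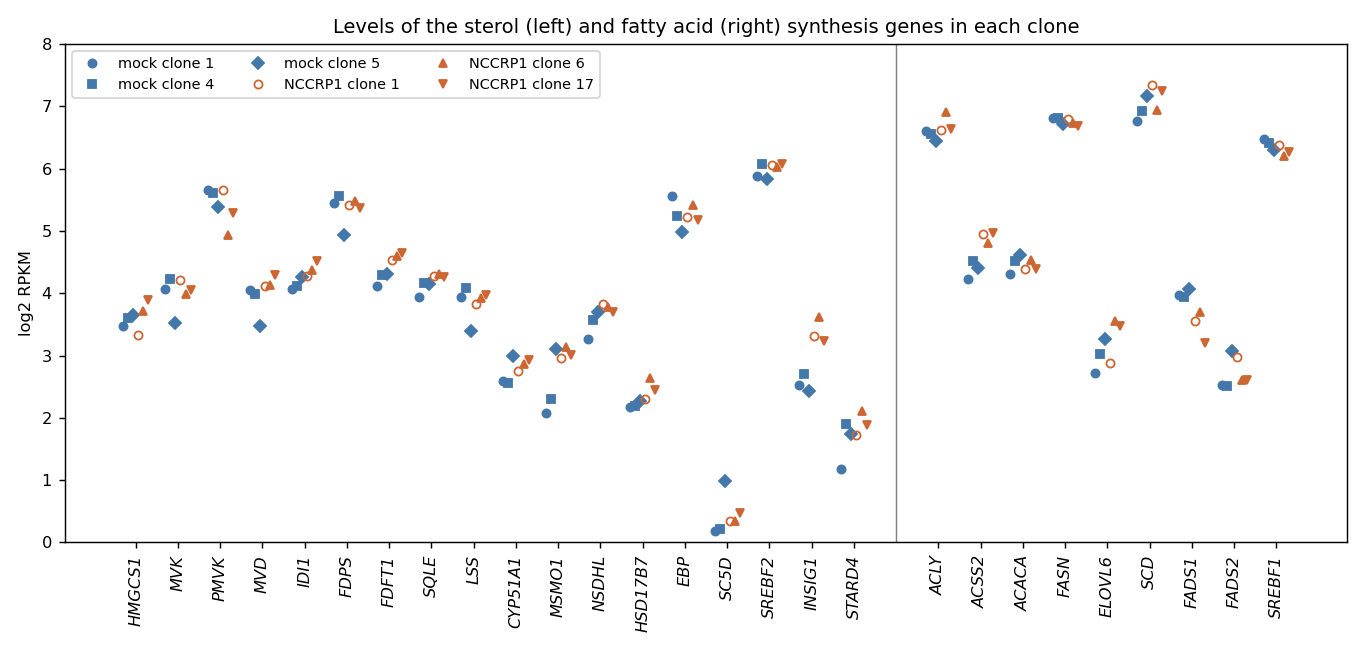
Log2 RPKM of each tested gene in each of the 6 clones (1 point per clone; blue, mock; orange, NCCRP1), with the sterol arm on the left in pathway order and the fatty acid arm on the right. INSIG1 and ACSS2 show groups apart, and mock clone 5 departs from mock clones 1 and 4 in MSMO1 and SC5D upward and in MVK, MVD, FDPS and LSS downward.

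The fatty acid arm held the highest levels of the list. Per length, mean mock levels were 124 RPKM for SCD, 110.3 for FASN, 92.6 for ACLY and 84.2 for SREBF1, above the 61.0 RPKM of SREBF2, the highest of the sterol arm. The 2 genes that supply acetyl-CoA averaged higher with NCCRP1. ACSS2 encodes the synthetase that makes acetyl-CoA from acetate. ACSS2 had mock values of 4.23, 4.52 and 4.41 against NCCRP1 values of 4.95, 4.81 and 4.97. The groups did not overlap, and the difference was 0.52 (SE 0.14, 1.44-fold; limma unadjusted p = 0.00345, adjusted p = 0.319), at 0.58 within run 15 and 0.48 within run 14. ACLY, which makes acetyl-CoA from citrate, averaged 6.53 ± 0.08 (mock) and 6.72 ± 0.16 (NCCRP1) (SD, n = 3 each), and the lowest NCCRP1 value (6.62) lay just above the highest mock value (6.60).

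The core of fatty acid synthesis was close between the groups. FASN, the fatty acid synthase gene, had mock values of 6.82, 6.81 and 6.72 against NCCRP1 values of 6.80, 6.73 and 6.69. Its 6 values spanned 0.13, the narrowest range of the 27 tested genes, and the difference of -0.04 had a 95% interval of -0.35 to 0.26. ACACA, encoding the carboxylase that makes malonyl-CoA, was at 4.48 ± 0.15 and 4.43 ± 0.08 (SD, n = 3 each). SREBF1, the gene of the fatty-acid-directed factor, had mock values of 6.48, 6.41 and 6.30 against NCCRP1 values of 6.37, 6.20 and 6.27, with overlap. Its difference was -0.11 (95% interval -0.42 to 0.19), against 0.13 for SREBF2.

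Elongation and desaturation genes went different ways. FADS1 encodes the delta-5 desaturase of polyunsaturated fatty acids. FADS1 had mock values of 3.96, 3.94 and 4.06 against NCCRP1 values of 3.55, 3.70 and 3.20. Every NCCRP1 clone lay below the tight mock group, and the difference was -0.51 (SE 0.16, 0.704 times the mock level; limma unadjusted p = 0.0105, adjusted p = 0.448), at -0.40 within run 15 and -0.61 within run 14. The neighbouring FADS2, encoding the delta-6 desaturase, had mock values of 2.53, 2.51 and 3.07 against NCCRP1 values of 2.97, 2.60 and 2.62, with a difference of 0.03 (95% interval -0.42 to 0.48). FADS1 and FADS2 overlap in RefSeq, and none of the sources used here says if strand was used in counting.

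SCD encodes the stearoyl-CoA desaturase that makes monounsaturated fatty acids. SCD had mock values of 6.76, 6.92 and 7.17 against NCCRP1 values of 7.34, 6.94 and 7.25. The groups overlapped, and the difference of 0.23 (limma adjusted p = 0.876) was 0.50 within run 15 and -0.07 within run 14. ELOVL6, an elongase gene, had mock values of 2.73, 3.03 and 3.26 against NCCRP1 values of 2.88, 3.55 and 3.48. NCCRP1 clone 1 lay below the median mock clone, and the difference of 0.30 was 0.0044 within run 15 and 0.25 within run 14.

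Arm averages per clone separated the groups for the sterol genes and overlapped for the fatty acid genes. The genes were chosen with earlier results of these data known and share the same 6 libraries, so this separation was not tested. How often averages of other gene lists separate the groups was not taken. Relative to each gene's mean over the 6 clones, the sterol arm had mock averages of -0.16, -0.04 and -0.11 against NCCRP1 averages of 0.06, 0.13 and 0.12. The groups did not overlap. The fatty acid arm had mock averages of -0.12, -0.03 and 0.06 against NCCRP1 averages of 0.04, 0.05 and -0.00093, with overlap at mock clone 5. For all tested genes the library medians lay between -0.03 and 0.05 on this scale. The sterol mean minus the fatty acid mean gave mock values of -0.04, -0.01 and -0.17 against NCCRP1 values of 0.02, 0.08 and 0.12.

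**Figure D3:**
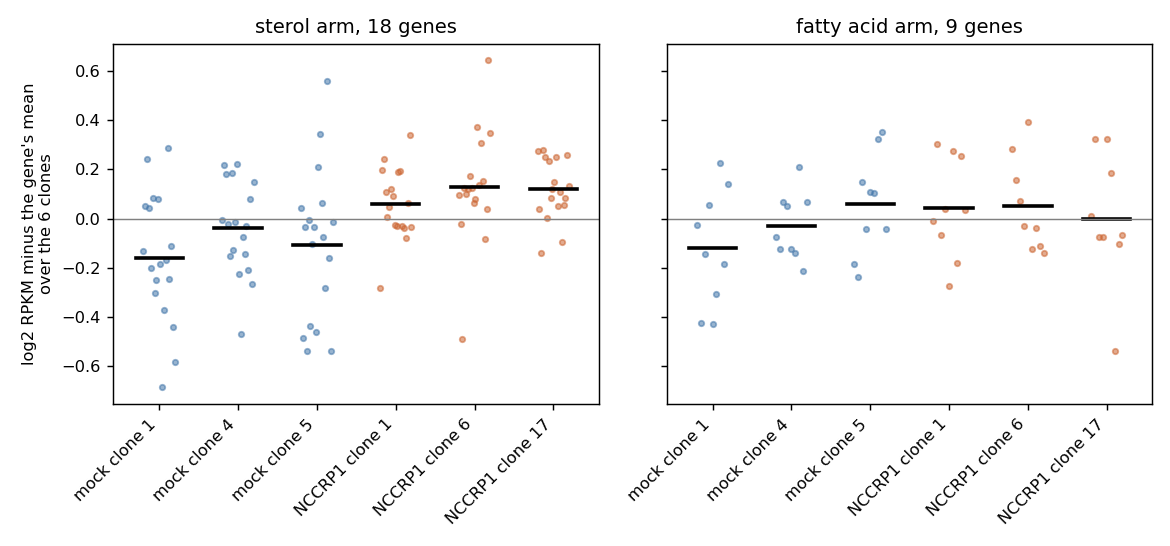
Log2 RPKM of each gene minus its mean over the 6 clones (points) and the mean of the arm (black bars) in each clone, for the 18 sterol genes (left) and the 9 fatty acid genes (right). The sterol bars run from -0.16 to -0.04 in mock and from 0.06 to 0.13 in NCCRP1 clones, whereas the fatty acid bars overlap.

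Single clones also moved several differences of the genes above. Without mock clone 1, SQLE was at 0.12, STARD4 at 0.08, MSMO1 at 0.33 and SCD at 0.13. Without mock clone 5, MVD was at 0.16 and MSMO1 at 0.85. Without NCCRP1 clone 6, HSD17B7 was at 0.17 and ACLY at 0.09. ELOVL6 ranged from 0.16 without mock clone 1 to 0.51 without NCCRP1 clone 1.

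The gap between the arm medians, 0.14 in all 6 clones, was not stable. It was 0.07 without mock clone 5, 0.08 without NCCRP1 clone 17 and 0.09 without NCCRP1 clone 6. It was 0.27 without mock clone 4, 0.23 without NCCRP1 clone 1 and 0.19 without mock clone 1. Within run 15 it was 0.13 (sterol 0.14, fatty acid 0.0044) and within run 14 it was 0.30 (sterol 0.24, fatty acid -0.06).

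Mock clone 5 was the sole mock clone of run 14, and its deviation from mock clones 1 and 4 varied with the GC content of the genes. All 8 genes with a transcript GC content under 45% (HMGCS1, IDI1, CYP51A1, MSMO1, HSD17B7, SC5D, STARD4 and ELOVL6) were higher in mock clone 5 than the mean of mock clones 1 and 4, by 0.08 to 0.92. Of the 9 genes over 55% (MVK, MVD, PMVK, FDPS, LSS, SREBF2, SREBF1, FASN and FADS2), 8 were lower in mock clone 5, by as much as MVK, at -0.62, and FADS2 was the exception at 0.55. Across the 27 genes the correlation with GC content was r = -0.65, and across 11670 genes above 0 in every library it was -0.64. These genes share the same 3 libraries and are no replicates. The group difference itself had an r of -0.30 with GC content across the 27 genes and -0.06 across the 11670. With each library's GC trend removed, INSIG1, FDFT1 and ACSS2 had differences of 0.83, 0.35 and 0.53, MSMO1 and MVD of 0.55 and 0.40, and FADS1 of -0.51. SREBF1 was then at -0.06, and FASN turned from -0.04 to 0.02.

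**Figure D4:**
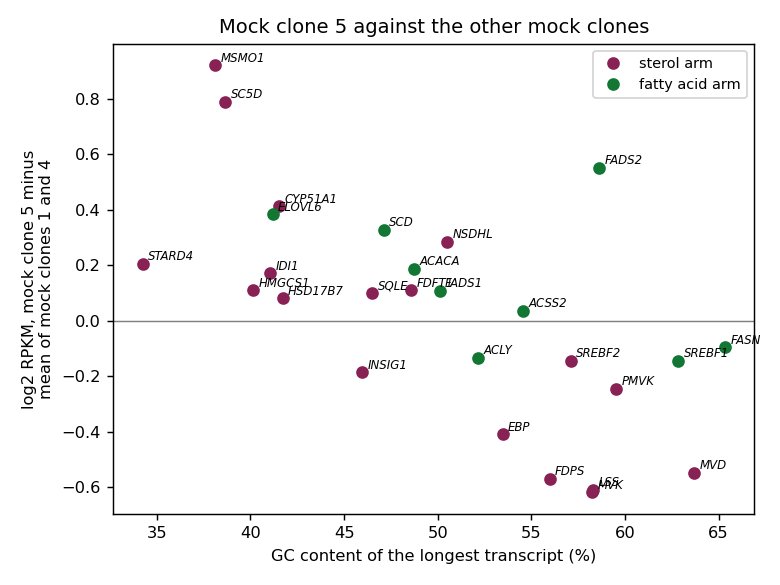
Log2 RPKM of mock clone 5 minus the mean of mock clones 1 and 4, against the GC content of the longest GENCODE transcript, for the 27 tested genes (purple, sterol arm; green, fatty acid arm). Genes under 45% GC lie above 0 and those over 55% below 0, apart from FADS2.

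Other genes of the pathway, 72 in 7 lists, had a median difference near 0. No gene of these lists passed limma's test, and of the 62 tested 34 had a higher and 28 a lower mean in the NCCRP1 clones (median 0.01). At an unadjusted p under 0.05, limma listed 2 of the 62, both higher, against 7.33% of all genes in either direction. Every NCCRP1 clone lay above every mock clone for 4 of the 62 (6.45%), against 5.71% of all genes. Every NCCRP1 clone lay below every mock clone for 3 of the 62, against 7.05% of all genes. Groups without overlap were therefore about as frequent in these lists as among all genes. Among 11 genes of SREBP cleavage and sterol sensing, 8 had a lower mean (median -0.04). SCAP, the escort of SREBP, averaged 5.81 ± 0.12 (mock) and 5.60 ± 0.21 (NCCRP1) (SD, n = 3 each), with overlap. INSIG2, the paralogue of INSIG1, had mock values of 1.57, 1.33 and 1.78 against NCCRP1 values of 1.24, 1.49 and 1.49, with overlap and a lower mean.

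Further sterol enzyme genes had 5 of 7 tested members with a higher mean (median 0.03). ERG28, a scaffold gene of the demethylation complex, averaged 3.59 ± 0.07 (mock) and 3.80 ± 0.13 (NCCRP1) (SD, n = 3 each), without overlap. In the isoprenoid branch 5 of 9 were higher (median 0.01). GGPS1, which makes geranylgeranyl diphosphate, was at 2.88 ± 0.48 and 3.24 ± 0.06, and NUS1, of dolichol synthesis, at 2.34 ± 0.10 and 2.04 ± 0.20, with every NCCRP1 clone below every mock clone.

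Of the sterol transport, storage and LXR list, 7 of 9 tested genes had a higher mean (median 0.13). NR1H3 encodes the oxysterol receptor LXR-alpha, which induces SREBF1. NR1H3 had mock values of 2.64, 2.60 and 1.88 against NCCRP1 values of 3.33, 3.01 and 2.99. Every NCCRP1 clone lay above every mock clone, and the difference was 0.74 (SE 0.23; limma unadjusted p = 0.00742, adjusted p = 0.393). NR1H2, the LXR-beta gene, was at 6.48 ± 0.13 and 6.75 ± 0.10 (SD, n = 3 each), also without overlap.

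Other fatty acid enzyme genes were balanced, with 8 of 17 tested members higher (median -0.04). The dehydratase gene HACD2 averaged 4.40 ± 0.21 (mock) and 4.10 ± 0.08 (NCCRP1), with every NCCRP1 clone below every mock clone, and the reductase gene TECR averaged 5.34 ± 0.15 and 5.18 ± 0.03 (SD, n = 3 each). In fatty acid activation and triglyceride synthesis 6 of 8 were higher (median 0.28). ACSL5, an acyl-CoA synthetase gene, had mock values of 1.09, 1.77 and 1.57 against NCCRP1 values of 1.45, 2.57 and 2.49 (limma adjusted p = 0.664). NCCRP1 clone 1 lay among the mock clones. ACSL3 was at 4.90 ± 0.17 and 5.23 ± 0.28, with overlap. Of the microRNA genes within the SREBP genes, MIR33A was listed at 0 in every library, and MIR33B had mock values of 0, 0.72 and 0.38 against NCCRP1 values of 0, 0 and 0.31.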

How the data were processed

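Each of the 6 deposited tables pairs Entrez gene IDs with a column named RPKM, per the file headers. The deposited numbers fit a log2 scale: unlogged and multiplied by transcript length in kilobases, they summed to 1130000 to 1150000 per library, against at least 11560000 for natural logarithms. The submitters' processing notes name the hg19 build and bedtools 2.25.0, and for the aligner the name is not given in the sources used here. Depth was the best whole-read step of microRNA values within 8000000 to 25000000 reads. Of the values within 8 steps, 23.4% to 33.1% lay within 0.005 of a whole step, too few to recover counts. Multiples of these depths outside that range were not searched.

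Symbols came from RefSeq (37997 of 40448 IDs). Genes above 0 in at least 3 of 6 libraries (12737) were tested, without rescaling, by limma 3.58.1 (R 4.3.3; group as the sole term, trended, robust, two-sided, Benjamini-Hochberg, threshold 0.05), after the test was tested on simulated data. Members and lists were chosen with earlier results of these data known; lists were therefore given counts and medians without a test. All 28 members were named, with 6 values for the 8 lowest p of the sterol arm, the 4 lowest of the fatty acid arm, INSIG1, SREBF1, SREBF2, SCD and FASN, and the up to 2 genes of lowest p per further list, with MIR33A and MIR33B. Some genes that this rule selects are not reported here. INSIG2, and all 6 values of FADS2, were added after their values were seen. With 1 library per clone, a p-value here reflects the spread among these 6 libraries and nothing wider. RefSeq spans of 17 of the 28 members overlap another gene, 6 a protein-coding one, so reads could be shared. The alternatives were other filters, scalings, offsets, settings of limma, the run as a term, within-run values and leaving out each clone; the removal of a GC trend (loess, span 0.5, GC content of the longest GENCODE v29 transcript known for 97.5% of tested genes) and of the median shift of 30 neighbouring genes were chosen after seeing the data.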

Additional observations from a re-analysis of the deposited data

How the results depend on the processing

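No member passed limma's adjusted test under any of the 18 settings that give a test. Of the 27 tested members, 14 kept their direction under all 20 alternatives. Other settings of limma (robust or trend off) and other filters leave the group means unchanged, so no direction could turn under those. INSIG1 ranged from 0.69 to 0.99 (limma adjusted p from 0.0529 to 0.477). No paired analysis was made, because the labels name no pairs of mock and NCCRP1 clones. A clone number found in both groups does not mark a pair. Leaving out each clone in turn, the sterol median ranged from 0.17 (without mock 1) to 0.24 (without mock 4), the fatty acid median from -0.028 (without mock 1) to 0.14 (without mock 5), and their gap from 0.067 (without mock 5) to 0.27 (without mock 4). The same omissions moved FDPS from -0.078 to 0.23, HMGCS1 from -0.061 to 0.22, FADS2 from -0.094 to 0.21, SC5D from -0.21 to 0.19, MVK from -0.062 to 0.29, ACACA from -0.13 to 0.015, LSS from -0.099 to 0.24 and EBP from -0.12 to 0.16. Within run 15 the direction turned for PMVK (0.031), FDPS (-0.088), HMGCS1 (-0.21), SC5D (0.15), LSS (-0.18) and EBP (-0.17). Within run 14 it turned for MSMO1 (-0.032), CYP51A1 (-0.095), SCD (-0.073) and FADS2 (-0.46), with a sterol median of 0.24, a fatty acid median of -0.060 and a gap of 0.30. With the run as a term, HMGCS1 was -0.035 and FADS2 -0.0052, and quantile normalization gave SC5D 0.013. In the analyses chosen after seeing the data, FASN was 0.022 with the GC trend removed and 0.014 with the neighbours' shift subtracted. Members at limma's unadjusted p under 0.05 numbered 4 in the main fit and 3 without mock 4. They numbered 6 with the GC trend removed and 8 with the neighbours' shift subtracted. The share of all genes under these alternatives was not taken, so the counts cannot be read as a result about the members. The cause of these changes was not tested. Groups of 3 clones and values under 1 RPKM listed as 0 limit what can be seen.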
